A study of Saccharomyces cerevisiae with 8 samples.

Results

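The proteasome genes of Saccharomyces cerevisiae, budding yeast, were followed on 8 Affymetrix yeast expression arrays of a laboratory evolution experiment. Members were taken by symbol from the array annotation: SCL1 and every PRE, PUP 1 to 3, RPN and RPT 1 to 6 gene. The rule found 34 genes among the 5449 S. cerevisiae genes with a probe set. Of these, 14 encode the core particle and 18 the regulatory particle, together 32 subunits. RPN4, a transcription factor, and RPN14, an assembly chaperone, carry RPN names without being subunits and are described apart. Each of the 34 had 1 probe set, and each lay above background on all 8 arrays.

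There were 4 groups of 2 arrays: a strain labelled parental, BY4742, and evolved strains 1, 2 and 3, which are individual isolates from cultures kept in high glucose for about 450 generations. All groups carry the same growth description, a complete medium with 2% glucose and 0.5% ammonium sulfate at 30 °C, in 100 ml with a daily transfer of 10 µl. The labels name no drug, engineered allele or transgene for any group. The labels give the 2 arrays of a group as biological replicates, and no label says that the cultures were separate. Every p-value therefore measures the spread from array to array alone, which may be technical. Values are log2 intensity, and a gene was called where its adjusted p in limma was under 0.05. In RNA pooled from a culture, fewer cells with a transcript and less of it per cell cannot be told apart.

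The proteasome is the protease that degrades proteins tagged with ubiquitin. Its core particle is a barrel of stacked rings: the alpha subunits form the gated ends, and the beta subunits form the inner rings, some of them with the active sites. The regulatory particle caps the barrel. Its base holds a ring of ATPases that unfold substrates and thread them in, and its lid removes the ubiquitin chain. In yeast the subunit genes share an activator, Rpn4, which is itself a short-lived proteasome substrate, so that the cell adjusts the supply of subunits to the amount of working protease.

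Some marker genes went against the BY4742 label, so the control arrays are called here the arrays labelled parental. BY4742 lacks LYS2, carries MET17, has HIS3, LEU2 and URA3 deleted, and is of mating type alpha. LYS2, an enzyme of lysine synthesis, was read at 9.09 and 9.04 in the arrays labelled parental and at 11.31 to 11.59 in the evolved strains, all above the background of 4.27 to 4.40. MET17, an enzyme of methionine synthesis, was about the background. It was at 4.14 and 4.51 in the arrays labelled parental and at 3.84 to 4.41 in the evolved strains. HIS3 was at 11.38 and 11.41 in the arrays labelled parental and at 12.82 to 12.94 in the evolved strains. LEU2 was low but above background, at 5.39 and 5.27 against 5.04 to 5.61. URA3 was below background on all 8 arrays, at 3.81 and 3.44 against 3.08 to 3.49. MFA2, a pheromone gene of a-type cells, was at 12.61 and 12.53 in the arrays labelled parental and at 6.79 to 7.14 in the evolved strains. From the labelled parental to the evolved mean, the a-type genes MFA1 (12.36 to 10.47), STE2 (9.17 to 6.71) and BAR1 (7.25 to 5.85) fell as well. The alpha-type genes were mixed. MF(ALPHA)1 (4.08 to 5.52), MF(ALPHA)2 (4.88 to 5.51) and STE3 (7.11 to 7.59) rose, and SAG1 fell (7.93 to 7.75). MF(ALPHA)1 was below background on both arrays labelled parental. For MF(ALPHA)2, strain 2 overlapped the arrays labelled parental, and SAG1 was called lower in strain 1 only. The mating type of the strains was not tested. For 7 control transcripts with probe sets at both ends, the excess of 3′ over 5′ signal was compared. It was larger on the labelled parental side for 5 and on the evolved side for 2. Evolved minus labelled parental, it ran from -0.72 (TDH1) to 0.74 (SRB4) on the log2 scale, with a median of -0.26. The part of strain background and of RNA quality in the differences below was not tested. Every contrast with the labelled parental group uses the same 2 arrays, so no value can be given without them.

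The subunit genes did not move as a block between the evolved strains and the arrays labelled parental. In the mean of the 3 evolved strains minus labelled parental, 16 of the 32 subunit genes were called higher and 15 lower, and RPN12, a lid subunit, was not called. Over all genes tested, 43.3% were called higher and 43.4% lower, so a call in this contrast is common. The median difference was 0.02 over the 32 subunits and -0.01 over all genes. The subunits moved less: their median absolute difference was 0.32, against 0.49 for all genes, and the standard deviation of the differences across genes was 0.43, against 0.88. RPT2, an ATPase of the base, was the 1 subunit gene of 32 past 2-fold, against 20.8% of all genes tested.

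More core genes rose than fell, and more regulatory genes fell than rose. In the core, 10 of 14 genes were called higher and 4 lower, with a median difference of 0.24. In the regulatory particle, 6 of 18 were called higher and 11 lower, with a median of -0.24. All 6 evolved arrays lay above both arrays labelled parental for 9 core genes and below for 4, and PRE3 overlapped. In the regulatory particle all 6 lay above for 5 genes and below for 10, and RPT5, RPN8 and RPN12 overlapped. Over all genes tested, all 6 evolved arrays lay above both arrays labelled parental for 38.2% and below for 38.9%.

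The strain was also fitted as a random block, which takes the arrays of a group as correlated, at 0.85 for all genes. That fit still uses the 8 arrays, with those labelled parental as 1 block, and does not count strains as units. In it, 17 of the 32 subunits were called. Of these, 6 core genes were higher and 3 lower, and 1 regulatory gene was higher and 7 lower. Over all genes that fit called 56.8%, with 1538 of the 5449 higher and 1558 lower.

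**Figure D1:**
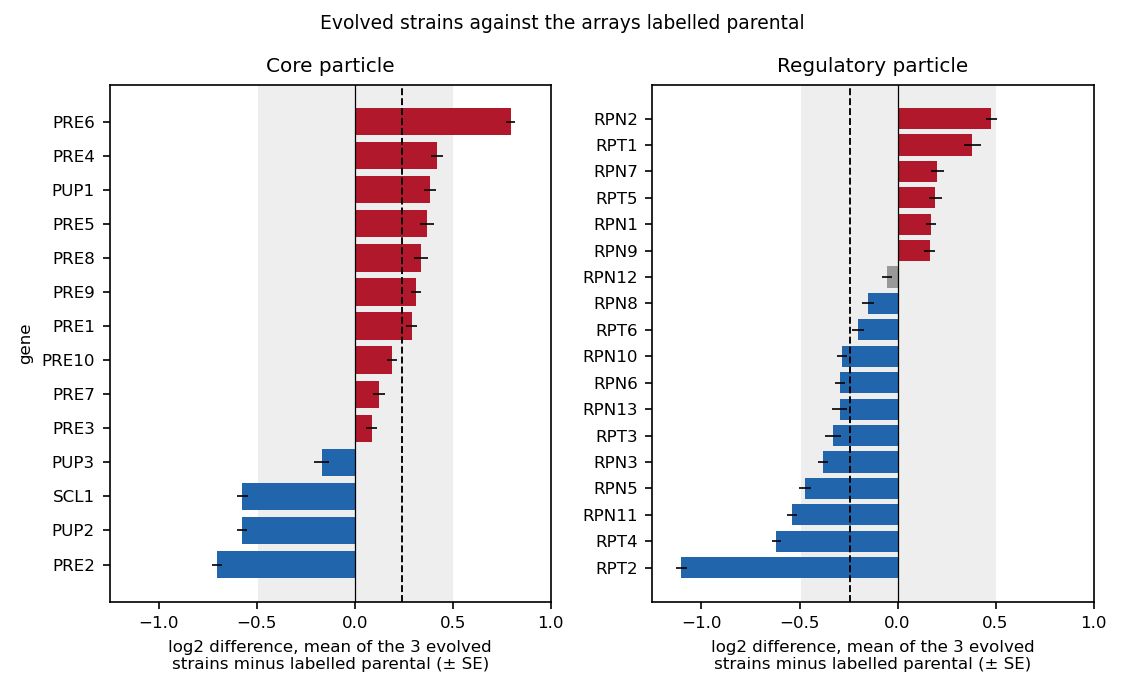
Log2 difference of the mean of the 3 evolved strains from the 2 arrays labelled parental (x axis, error bars ± SE) for each core (left) and regulatory (right) subunit gene; red bars were called higher, blue lower, and grey was not called at an adjusted p under 0.05 in limma. The dashed line is the median of the list (0.24 and -0.24) and the grey band spans the middle 50% of all genes tested; most subunits lie inside it.

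Of the 7 genes of the alpha ring, 5 were called higher in the mean of the evolved strains and 2 lower, with a median difference of 0.31. With the strain as a random block 4 were called higher and 2 lower, and the call of PRE10 was lost. PRE6 (YOL038W), an alpha subunit, was at 11.54 and 11.53 in the arrays labelled parental, 12.38 and 12.40 in strain 1, 12.24 and 12.27 in strain 2, and 12.34 and 12.36 in strain 3. All evolved arrays were higher, with no overlap. The difference of 0.80 ± 0.02 (SE), 1.74-fold higher, was the largest rise among the 34 genes (limma, adjusted p = 1.22e-07).

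SCL1 (YGL011C) and PUP2 (YGR253C), alpha subunits as well, were the 2 that fell. SCL1 was at 12.93 and 12.92 in the arrays labelled parental, 12.48 and 12.43 in strain 1, 12.25 and 12.29 in strain 2, and 12.35 and 12.31 in strain 3. PUP2 was at 13.05 and 13.08 in the arrays labelled parental, 12.55 and 12.54 in strain 1, 12.46 and 12.43 in strain 2, and 12.50 and 12.49 in strain 3. For both genes the 2 arrays labelled parental were the highest of the 8. In limma SCL1 was 1.49-fold lower (log2 -0.57 ± 0.03 SE, adjusted p = 9.16e-07) and PUP2 also 1.49-fold lower (-0.57 ± 0.02, adjusted p = 6.01e-07).

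The other 4 alpha genes rose by smaller amounts. PRE9, the alpha subunit that yeast can live without and that PRE6 can replace in the ring, rose by 0.31 ± 0.03, PRE5 by 0.37 ± 0.04, PRE8 by 0.34 ± 0.04 and PRE10 by 0.19 ± 0.03 (log2 ± SE). PRE5 was at 11.69 and 11.64 in the arrays labelled parental, 12.21 and 12.10 in strain 1, 11.93 and 11.95 in strain 2, and 11.98 and 12.02 in strain 3. The rise was seen on all 6 evolved arrays, and strain 1 stood highest.

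In the beta ring, 5 of 7 genes were called higher and 2 lower, with a median difference of 0.12. With the strain as a random block 2 were called higher, PUP1 and PRE4, and 1 lower, PRE2. The 3 genes for the active subunits differed from each other. PRE2 (YPR103W), which carries the chymotrypsin-like site, fell; PUP1 (YOR157C), with the trypsin-like site, rose; and PRE3 (YJL001W), with the caspase-like site, rose by the least of the core genes.

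PRE2 was at 13.02 and 12.98 in the arrays labelled parental, 12.26 and 12.27 in strain 1, 12.29 and 12.26 in strain 2, and 12.35 and 12.34 in strain 3. The groups did not overlap, and the evolved strains lay close together. The difference was -0.70 ± 0.02 (SE), 1.63-fold lower (limma, adjusted p = 2.23e-07), the largest fall in the core particle.

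PUP1 was at 11.07 and 11.00 in the arrays labelled parental, 11.43 and 11.45 in strain 1, 11.34 and 11.37 in strain 2, and 11.47 and 11.49 in strain 3. All evolved arrays were higher, and the difference was 0.38 ± 0.03 (SE), 1.31-fold (limma, adjusted p = 1.22e-05). PRE3 was at 12.32 and 12.36 in the arrays labelled parental, 12.51 and 12.48 in strain 1, 12.35 and 12.33 in strain 2, and 12.47 and 12.43 in strain 3. Strain 2 overlapped the arrays labelled parental, and the difference of the means was 0.09 ± 0.03 (SE; limma, adjusted p = 0.0217). Besides the loss with the strain as a random block, that call was lost when arrays were centred on their medians (0.03), without replicate 1 labelled parental (0.06) and without replicate 1 of strain 2 (0.09).

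Among the structural beta subunits PRE4 (YFR050C) rose most. It was at 11.89 and 11.94 in the arrays labelled parental, 12.43 and 12.41 in strain 1, 12.26 and 12.19 in strain 2, and 12.37 and 12.34 in strain 3. The evolved arrays were all higher, by 0.42 ± 0.03 (SE), 1.34-fold (limma, adjusted p = 8.48e-06). PRE1 rose by 0.29 ± 0.03 and PRE7 by 0.12 ± 0.03, and PUP3 fell by 0.17 ± 0.04. PRE7 was no longer called after centring (0.07), nor were PRE1, PRE7 and PUP3 with the strain as a random block.

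The base of the regulatory particle has a ring of 6 ATPases, each from its own gene. Of these genes 2 were called higher and 4 lower, with a median difference of -0.26. RPT2 and RPT4 were still called with the strain as a random block, and the other 4 were not. RPT2 (YDL007W), an ATPase that takes part in opening the gate of the core, was at 12.72 and 12.67 in the arrays labelled parental, 11.64 and 11.59 in strain 1, 11.50 and 11.48 in strain 2, and 11.68 and 11.68 in strain 3. The gap between the groups was wider than for any other of the 34 genes. RPT2 was 2.15-fold lower (log2 -1.10 ± 0.03 SE; limma, adjusted p = 5.51e-08).

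RPT4 (YOR259C) was at 12.77 and 12.75 in the arrays labelled parental, 12.12 and 12.13 in strain 1, 12.09 and 12.09 in strain 2, and 12.20 and 12.23 in strain 3. It was lower on all evolved arrays, 1.54-fold (-0.62 ± 0.02 SE; limma, adjusted p = 3.4e-07). RPT3 fell by 0.33 ± 0.04 and RPT6 by 0.20 ± 0.03, both below the arrays labelled parental on every evolved array.

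RPT1 (YKL145W) and RPT5 (YOR117W) were the ATPase genes that rose. RPT1 was at 11.91 and 11.75 in the arrays labelled parental, 12.11 and 12.08 in strain 1, 12.23 and 12.22 in strain 2, and 12.30 and 12.33 in strain 3. Each evolved array was higher, by 0.38 ± 0.04 (SE; limma, adjusted p = 0.00012), although the 2 arrays labelled parental differed from each other more than those of any evolved strain. RPT5 was at 10.87 and 10.97 in the arrays labelled parental, 10.97 and 10.97 in strain 1, 11.10 and 11.13 in strain 2, and 11.26 and 11.24 in strain 3. Strain 1 overlapped the arrays labelled parental, and the mean difference was 0.19 ± 0.03 (SE; limma, adjusted p = 0.00135).

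Of the other 4 base genes, RPN1 and RPN2 encode the large scaffold subunits and were called higher. RPN10 and RPN13 encode ubiquitin receptors and were called lower. With the strain as a random block RPN2 and RPN10 were still called, and RPN1 and RPN13 were not. RPN2 (YIL075C) was at 10.99 and 11.04 in the arrays labelled parental, 11.41 and 11.36 in strain 1, 11.46 and 11.42 in strain 2, and 11.65 and 11.65 in strain 3. Strain 3 stood highest, no array overlapped, and the mean difference was 0.48 ± 0.03 (SE), 1.39-fold higher (limma, adjusted p = 3.39e-06). It was the largest rise in the regulatory particle and the 1 rise there that was still called with the strain as a random block.

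RPN1 (YHR027C), which also binds the shuttle factors that deliver tagged substrates, was at 11.62 and 11.63 in the arrays labelled parental, 11.68 and 11.66 in strain 1, 11.75 and 11.80 in strain 2, and 11.94 and 11.96 in strain 3. Its mean difference was 0.17 ± 0.03 (SE; limma, adjusted p = 0.000651), and strain 3 stood highest. RPN10 (YHR200W) was at 11.44 and 11.43 in the arrays labelled parental and at 11.08 to 11.22 in the evolved strains. It fell by 0.28 ± 0.02 (SE; limma, adjusted p = 2.69e-05), with no overlap. RPN13 (YLR421C) was at 13.05 and 13.18 in the arrays labelled parental, 12.99 and 12.96 in strain 1, 12.71 and 12.76 in strain 2, and 12.76 and 12.75 in strain 3. It fell by 0.29 ± 0.04 (SE; limma, adjusted p = 0.00029), and least in strain 1.

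Of the 8 lid genes 2 were called higher and 5 lower, with a median difference of -0.22. RPN7, RPN8 and RPN9 lost their calls with the strain as a random block, which left 4 genes, each lower. RPN11 (YFR004W), the enzyme that cuts the ubiquitin chain off a substrate, was at 11.89 and 11.90 in the arrays labelled parental, 11.43 and 11.42 in strain 1, 11.26 and 11.23 in strain 2, and 11.41 and 11.36 in strain 3. All evolved arrays were lower, 1.45-fold in the mean (-0.54 ± 0.03 SE; limma, adjusted p = 1.11e-06). RPN8, the inactive partner of Rpn11, had a mean difference of -0.15 ± 0.03 (adjusted p = 0.00322), and its arrays of strain 1 overlapped those labelled parental.

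The other 6 lid genes encode scaffold subunits built around a PCI domain. RPN5 (YDL147W) was at 13.05 and 13.06 in the arrays labelled parental, 12.69 and 12.65 in strain 1, 12.46 and 12.51 in strain 2, and 12.62 and 12.55 in strain 3. Every evolved array was lower, and it fell by 0.47 ± 0.03 (SE; limma, adjusted p = 5.26e-06). RPN3 fell by 0.38 ± 0.02 and RPN6, which bridges the lid to the core, by 0.29 ± 0.03. RPN7 rose by 0.20 ± 0.03 and RPN9 by 0.16 ± 0.03.

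RPN12 (YFR052W), the last subunit to join the lid, was at 12.23 and 12.26 in the arrays labelled parental, 12.35 and 12.31 in strain 1, 12.05 and 12.04 in strain 2, and 12.21 and 12.19 in strain 3. Strain 1 lay above, and strains 2 and 3 below, the arrays labelled parental. The mean difference was -0.05 ± 0.03 (SE; limma, adjusted p = 0.0818). It passed the threshold after centring (-0.11) and with robust moderation (-0.05).

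Pairs of member genes lie near each other in the genome at 2 places. PRE4 and RPN12 flank RET2, and RPT4 and RPN8 flank GCD1. PRE4 rose and RPN12 was not called, while RPT4 and RPN8 both fell. The 34 genes are spread over 13 chromosomes.

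RPN4 (YDL020C), the activator of the subunit genes, was at 12.00 and 11.93 in the arrays labelled parental, 11.91 and 11.86 in strain 1, 12.04 and 12.03 in strain 2, and 12.11 and 12.06 in strain 3. The groups lay close together, with strain 1 lowest and strain 3 highest. The mean difference was 0.04 ± 0.03 (SE; limma, adjusted p = 0.289). It turned to -0.02 when arrays were centred on their medians and was called higher after quantile normalization (0.08), so its direction was not settled. Against the arrays labelled parental, RPN4 was called higher in strain 3 (0.12 ± 0.04; adjusted p = 0.0211) and not in strain 1 (-0.08 ± 0.04) or strain 2 (0.07 ± 0.04). The call in strain 3 was lost after centring (0.04), without replicate 1 of strain 3 (0.10), and without replicate 2 labelled parental (0.08), and also when only strain 3 and the labelled parental group were fitted (0.12). In strain 1 it was called lower after centring (-0.10), with robust moderation (-0.08) and without replicate 2 labelled parental (-0.11), and in strain 2 higher after quantile normalization (0.12) and without replicate 1 labelled parental (0.11).

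RPN14 (YGL004C), a chaperone of base assembly, was at 10.90 and 10.94 in the arrays labelled parental, 10.82 and 10.79 in strain 1, 10.76 and 10.73 in strain 2, and 10.79 and 10.79 in strain 3. The evolved arrays were lower, by a small margin. It fell by 0.14 ± 0.03 (SE; limma, adjusted p = 0.00145), a call that was lost with the strain as a random block.

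**Figure D2:**
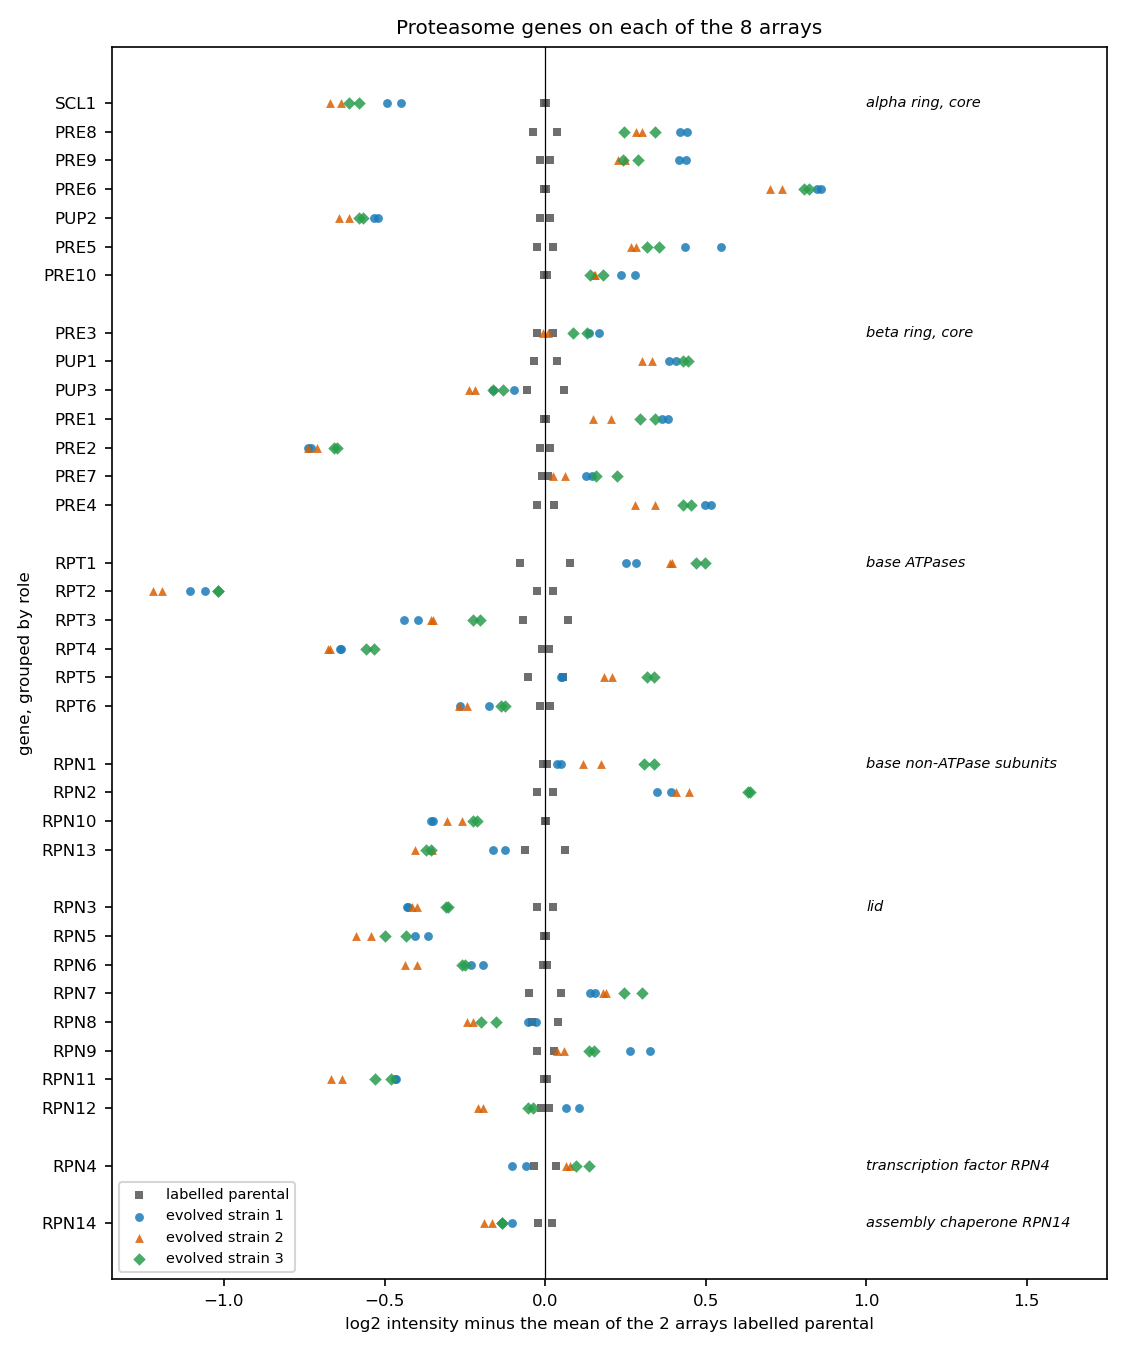
Log2 intensity of each of the 34 genes on each of the 8 arrays, minus the mean of the 2 arrays labelled parental for that gene (x axis), with genes grouped by role (y axis); each symbol is 1 array. RPT2 lies farthest left, at -1.22 on an array of strain 2, and PRE6 farthest right, at 0.86 on an array of strain 1, and the 2 arrays of an evolved strain lie close together.

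Taken 1 strain at a time, the core genes were called higher more often than lower against the arrays labelled parental, and the regulatory genes lower more often than higher. In strain 1 the core had 10 genes higher and 4 lower (median 0.32) and the regulatory particle 5 higher and 10 lower (median -0.18), where 40.6% of all genes were higher and 43.9% lower. In strain 2 the core had 8 higher and 4 lower (median 0.17) and the regulatory particle 5 higher and 12 lower (median -0.27), where 42.5% of all genes were higher and 42.6% lower. After centring, strain 2 had 6 core genes higher and 4 lower (median 0.08) and 3 regulatory genes higher and 12 lower (median -0.35). Of the 5449 genes tested 2090 were then higher and 2556 lower. In strain 3 the core had 10 higher and 4 lower (median 0.23) and the regulatory particle 6 higher and 11 lower (median -0.19), where 43% of all genes were higher and 41.1% lower. These 3 contrasts share their control arrays and do not count as repeats of each other.

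RPN12 was the subunit called on both sides. It was called higher in strain 1 (0.08 ± 0.03 SE; limma, adjusted p = 0.0359) and lower in strain 2 (-0.20 ± 0.03; adjusted p = 0.000653). The call in strain 1 was lost after centring (0.07), without replicate 1 of strain 1 (0.06) and without replicate 1 labelled parental (0.07), and also, at the same difference of 0.08, when only those 2 groups were fitted and without any 1 of the 4 arrays of strains 2 and 3.

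The evolved strains also differed among themselves. The range over the 3 strain means was 0.08 to 0.29 over the subunits, with a median of 0.18, against a median of 0.24 over all genes. That range was smaller than the size of the mean difference from labelled parental for 25 of the 32 subunits and larger for 7, which were PRE3, PRE7, RPT5, RPN1, RPN8, RPN9 and RPN12. A moderated F test among the 3 strains called 27 of the 32 subunits, 11 of 14 in the core and 16 of 18 in the regulatory particle, against 68.9% of all genes tested. RPN4 was called as well, and RPN14 was not.

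No subunit gene was highest in strain 2. Of the 32, 18 were highest in strain 1 and 14 in strain 3, while 23 were lowest in strain 2 and 9 in strain 1. Over all genes tested, 28.3% were highest in strain 2 and 27.9% lowest there. The count of 0 highest in strain 2 was the same after quantile normalization and after centring.

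The strain with the highest level differed between roles. All 7 alpha genes were highest in strain 1 and lowest in strain 2, by 0.10 to 0.22 between those strains. All 6 base ATPase genes were highest in strain 3. Over all genes tested, 32.8% were highest in strain 1 and 38.8% in strain 3, an order that turned after quantile normalization (38% and 35.4%) and after centring (43.1% and 35.1%). The counts of 7 alpha and 6 ATPase genes held after quantile normalization and after centring, and with quantile normalization 1 alpha gene was lowest in strain 3 instead of strain 2. In the beta ring 4 genes were highest in strain 1 and 3 in strain 3, which became 6 and 1 after centring, and in the lid 6 and 2. Over the 32 subunits, 4 were lowest in strain 1 after centring. Of the other base genes, RPN1, RPN2 and RPN10 were highest in strain 3 and RPN13 in strain 1.

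Not every step between strains passed the test. PRE5, for which the range was widest in the alpha ring, lay 0.22 lower in strain 2 than in strain 1 (limma, adjusted p = 0.00689), and its strains 2 and 3 differed by 0.06 (adjusted p = 0.328). RPT5 lay 0.28 higher in strain 3 than in strain 1 (adjusted p = 0.00188). RPN1 had the same order, 0.28 higher in strain 3 than in strain 1 (adjusted p = 0.000777) and 0.18 higher than in strain 2 (adjusted p = 0.00872), and the second of these calls was lost without replicate 1 of strain 2 (0.15) or replicate 2 of strain 3 (0.16). RPN12 had the widest range of the 34 genes, with strain 2 at -0.29 from strain 1 (adjusted p = 0.000675).

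**Figure D3:**
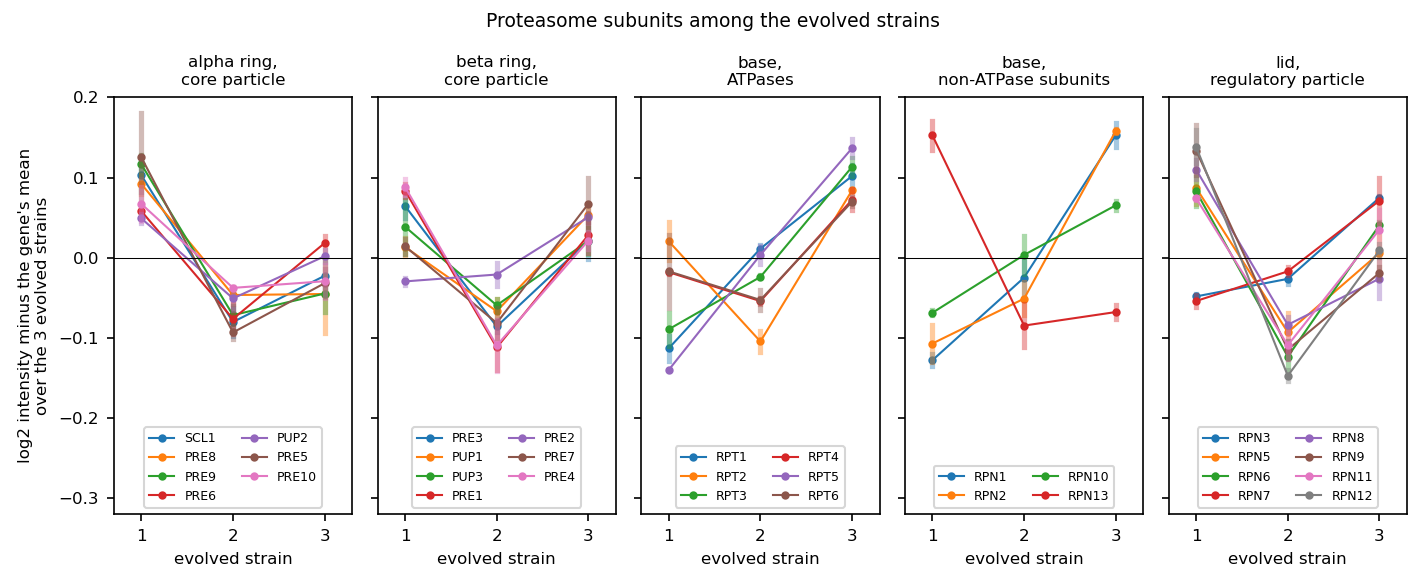
Mean log2 intensity of each evolved strain minus the mean of the 3 strains (y axis), 1 line per gene, with the genes of a role in a panel; faint bars span the 2 arrays of a strain, the strains have no order, and the lines only join the values of a gene. All 7 alpha genes peak in strain 1 and dip in strain 2, and all 6 base ATPase genes peak in strain 3.

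In pairwise tests, strain 2 against strain 1 gave 2 subunits higher, RPT5 and RPN1, and 18 lower, 10 of them in the core, where 29.8% of all genes were higher and 22.9% lower. After centring 0 were higher in limma, also at an unadjusted p under 0.05. Of the 5449 genes tested 1098 were then called higher and 1713 lower. Strain 3 against strain 1 gave 9 higher, all in the regulatory particle, and 9 lower, 5 of them in the core, where 33.1% of all genes were higher and 24.4% lower. After centring 5 were higher and 15 lower, where 1368 of the 5449 genes tested were higher and 1722 lower. Strain 3 against strain 2 gave 12 higher, 4 in the core and 8 in the regulatory particle, and 0 lower in limma, also at an unadjusted p under 0.05, where 17.5% of all genes were higher and 14.5% lower. In that comparison all 32 subunit genes had the higher level in strain 3, against 3065 of the 5449 genes tested. With quantile normalization 2 of the 32 had the lower level there. The same number did without replicate 1 of strain 2, and without replicate 1 of strain 3. With robust moderation 20 were called higher, and the share of all genes called in this comparison rose from 32% to 39%.

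These pairwise counts rested on single arrays. Over all genes too, the share called fell without any 1 array of an evolved strain and rose without either array labelled parental. The direction of the moves below is therefore shared with all genes, and whether their size differs for the subunits was not tested. For strain 2 against strain 1, 13, 12 and 13 subunits were called without replicate 1 of strain 1, replicate 1 of strain 2 and replicate 2 of strain 2. In limma 0 were called higher without any 1 array of strains 1 and 2 (0 to 2 at an unadjusted p under 0.05), and 1 without either array of strain 3. For strain 3 against strain 1, 9, 10 and 6 were called without replicate 1 of strain 1, replicate 2 of strain 1 and replicate 2 of strain 3. Those called higher came to 4 without replicate 2 of strain 1, 5 without replicate 1 of strain 3 and 4 without replicate 2 of strain 3, and those called lower to 2 without replicate 1 of strain 1 and 2 without replicate 2 of strain 3. For strain 3 against strain 2, 3 and 1 were called without replicates 1 and 2 of strain 2, 2 and 3 without replicates 1 and 2 of strain 3, and 19 without either array labelled parental. The F test called 15 subunits without replicate 1 of strain 1 and 16 without either array of strain 2.

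Around the subunits, 43 other genes of the ubiquitin and proteasome system were read in the mean contrast. They form 5 lists, and each list had members on both sides. Over all genes tested, 43.3% were called higher and 43.4% lower in that contrast. All 6 evolved arrays lay above both arrays labelled parental for 38.2% of all genes and below for 38.9%. Calls and gaps without overlap are therefore common, also in the lists below. Of 9 assembly chaperone genes 3 were called higher and 5 lower, with a median of -0.25. TMA17, a chaperone that pairs base ATPases under stress, was at 11.80 and 11.90 in the arrays labelled parental and at 12.72 to 12.92 in the evolved strains, 1.96-fold higher (0.97 ± 0.04 SE; limma, adjusted p = 3.11e-07). HSM3, another base chaperone, was at 10.44 and 10.54 in the arrays labelled parental and at 9.47 to 9.89 in the evolved strains, 1.78-fold lower (-0.83 ± 0.04; adjusted p = 1.65e-06). ADD66, a chaperone of alpha ring assembly, rose by 0.62 ± 0.03. The groups did not overlap for any of the 3.

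Of 7 genes for proteins that bind the proteasome, 1 was called higher and 3 lower, with a median of -0.06. SPG5, a proteasome regulator of stationary phase cells, was at 12.64 and 12.65 in the arrays labelled parental and at 11.45 to 11.61 in the evolved strains, 2.21-fold lower (-1.14 ± 0.03 SE; limma, adjusted p = 6.7e-08). FUB1, related to the mammalian inhibitor PI31, fell by 0.82 ± 0.04. SEM1, a small lid protein whose symbol the rule does not take in, fell by 0.40 ± 0.04, and ECM29, a proteasome tether, rose by 0.25 ± 0.05.

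Of 13 genes for ubiquitin and for the enzymes that attach it, 6 were called higher and 3 lower, with a median of 0.06. RAD6, a ubiquitin-conjugating enzyme of DNA damage tolerance and of the N-degron pathway, was at 11.50 and 11.49 in the arrays labelled parental, 9.45 and 9.39 in strain 1, 9.09 and 9.05 in strain 2, and 9.28 and 9.20 in strain 3. It was 4.77-fold lower, the widest gap among these 43 genes (-2.25 ± 0.03 SE; limma, adjusted p = 7.48e-09). UBA1, the enzyme that activates ubiquitin, was at 10.48 and 10.37 in the arrays labelled parental and at 11.32 to 11.54 in the evolved strains, 2.04-fold higher (1.03 ± 0.03; adjusted p = 1.91e-07). CDC34, the conjugating enzyme of SCF ligases, fell by 0.80 ± 0.05.

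Of 8 genes for shuttle factors and the Cdc48 complex, which pulls tagged proteins out of complexes and membranes, 3 were called higher and 5 lower, with a median of -0.31. UFD1, a Cdc48 cofactor, was at 11.41 and 11.32 in the arrays labelled parental and at 9.84 to 10.14 in the evolved strains, 2.57-fold lower (-1.36 ± 0.03 SE; limma, adjusted p = 3.85e-08). UBX2, which brings Cdc48 to the endoplasmic reticulum membrane, was at 8.84 and 9.06 in the arrays labelled parental and at 9.97 to 10.14 in the evolved strains, 2.15-fold higher (1.10 ± 0.06; adjusted p = 1.34e-06). DSK2, a shuttle factor, fell by 0.55 ± 0.05.

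Of 6 genes that regulate RPN4 or the turnover of its protein, 3 were called higher and 2 lower, with a median of 0.07. UBR2 (YLR024C), the ubiquitin ligase that marks Rpn4 for degradation, was at 7.64 and 7.54 in the arrays labelled parental, 9.06 and 8.90 in strain 1, 8.92 and 8.96 in strain 2, and 8.85 and 8.87 in strain 3. It was 2.52-fold higher, with no overlap (1.34 ± 0.05 SE; limma, adjusted p = 2.74e-07). PDR3, a transcription factor of drug resistance, rose by 0.36 ± 0.04, and HSF1, the heat shock factor, fell by 0.33 ± 0.03. Arrays read transcripts, and the level of the Rpn4 protein was not measured.

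**Figure D4:**
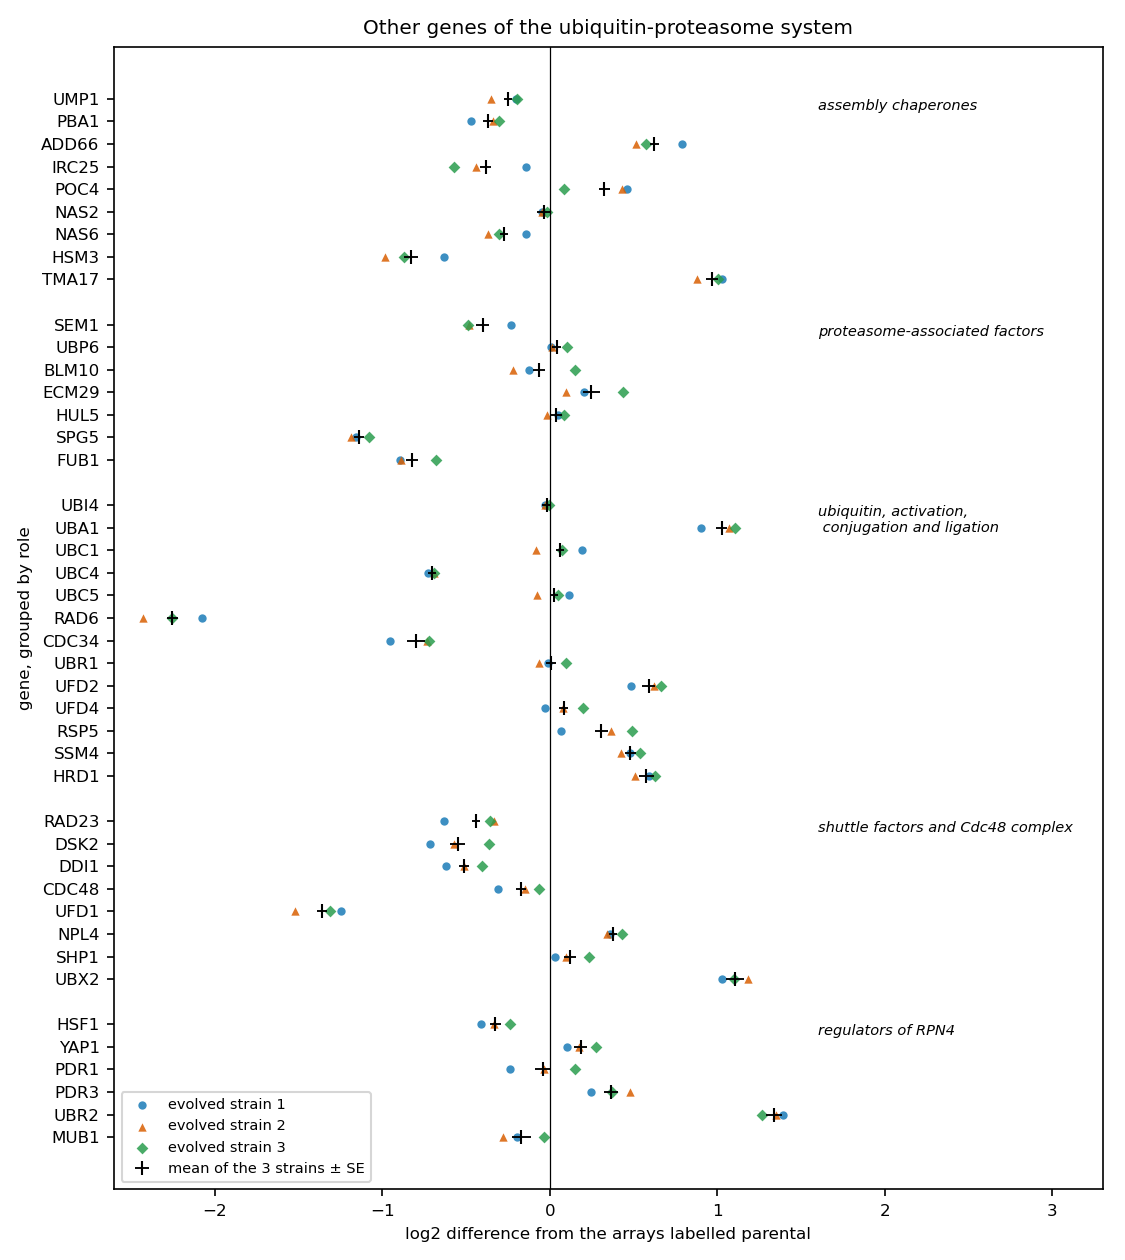
Log2 difference of the mean of the 3 evolved strains from the 2 arrays labelled parental (x axis, black marks with ± SE) for the 43 other genes in 5 lists (y axis); coloured symbols are the 3 strains, each the mean of its 2 arrays. RAD6 at -2.25 lies farthest left and UBR2 at 1.34 farthest right.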

How the data were processed

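Total RNA (100 ng) was labelled with biotin and hybridised to 8 arrays, per the labels. The deposited values are intensity values on a linear scale, made by the authors with RMA per the submitters' processing notes; RMA corrects background and normalizes quantiles between arrays, and the sources used here do not give the version that was run. Here log2 was taken, although a log2 scale had been assumed in planning. Of 10928 probe sets, 5498 had 1 S. cerevisiae gene, 1 had several, 1746 were of another species and 3683 were not listed. The brightest probe set was used for the 47 genes with several, and 12 symbols were updated from the R64 annotation, none of a member. The probe sets of the other species set the background, at their 95th percentile on each array. Median intensity per array was 52.6 to 63.0, and 2 arrays per group limit the precision.

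One limma 3.58.1 model (R 4.3.3, statmod 1.5.0) with a coefficient per group was fitted to all 5449 genes, with 4 residual and 2.52 prior degrees of freedom, with Benjamini-Hochberg adjustment within each contrast. An exact test of 2 arrays against 2 cannot go below p = 0.333. In a simulation, 5449 genes were given normal noise, with the fitted spreads shuffled across genes. For strain 1 against labelled parental, 50 genes each were shifted by 0.25, 0.5, 1 and 2 on the log2 scale. Of these shifts 64%, 92%, 96% and 100% were called, and 12 of 188 calls were false. In the measured contrast 84.5% of all genes were called, so these rates do not carry over to it. Members and lists were chosen with earlier results of these data known. Every member could be named; in each other list the 3 largest differences, the largest rise and the largest fall in the mean contrast were named. The alternatives were another normalization, centring, all probe sets, a background filter, robust moderation, the compared groups alone, the replicate number or the strain as a block, and each array left out. Promoter sequences were not analysed here, and no coordinates are given.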

Additional observations from a re-analysis of the deposited data

Results flagged for a closer look

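With 2 arrays per group, no group was large enough to look for single arrays that stand apart. What marked genes here was a moderated F test in limma of any difference among the 3 evolved strains, adjusted p under 0.05, which 68.9% of all genes tested passed. It marked 28 of the 34 genes. The value given is the range over the 3 strain means on the log2 scale.

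In the alpha ring the range was 0.22 for PRE5, 0.19 for PRE9, 0.18 for SCL1, 0.14 for PRE8, 0.13 for PRE6 and 0.10 for PRE10. Strain 1 was the highest and strain 2 the lowest for all of these. In the beta ring it was 0.20 for PRE4, 0.20 for PRE1, 0.15 for PRE3, 0.15 for PRE7 and 0.12 for PUP1, with strain 2 lowest for each.

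Among the base ATPases the range was 0.28 for RPT5, 0.22 for RPT1, 0.20 for RPT3, 0.19 for RPT2 and 0.13 for RPT4, with strain 3 highest for each. Among the other base subunits it was 0.28 for RPN1, 0.27 for RPN2, 0.24 for RPN13 and 0.13 for RPN10.

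In the lid the range was 0.29 for RPN12, 0.25 for RPN9, 0.21 for RPN6, 0.19 for RPN8, 0.18 for RPN11, 0.18 for RPN5 and 0.12 for RPN3. For the transcription factor gene RPN4 it was 0.20, with strain 1 lowest and strain 3 highest.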

How the results depend on the processing

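Over all contrasts and alternatives, single genes kept direction and call in 3256 of 3570 cases, lost a call in 205, gained one in 82 and changed sign in 27, none of these called on either side. Counts stayed within 1.5 times in 291 of 330 cases. With the strain as a random block the mean contrast called 17 subunits (7 higher) instead of 31 (16 higher). Centring changed the subunits called higher from 2 to 0 for strain 2 against strain 1, and for strain 3 against strain 1 from 9 to 5 higher and 9 to 15 lower. It moved the share of higher among all calls from 56.6% to 39.1% and from 57.6% to 44.3% in those contrasts, and the median of all genes by 0.06 in the mean contrast. Robust moderation raised strain 3 against strain 2 from 12 to 20, all higher, while the share called over all genes rose from 32% to 39%. Leaving out each array in turn gave 30 to 31 calls in the mean contrast, 12 to 24 for strain 2 against strain 1 (higher 0 to 3), 6 to 19 for strain 3 against strain 1 (higher 4 to 10, lower 2 to 9), 1 to 19 for strain 3 against strain 2, all of them higher, and 15 to 30 for the F test. An arm left with 1 array was taken to vary like the others. With an array left out, the share called over all genes moved the same way as the subunit counts in the comparisons among evolved strains. This did not hold under centring. For strain 3 against strain 1 that share fell from 57.5% to 56.7%, while more subunits were called. In each case the cause was not tested.

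Signs turned under centring for RPN4 in the mean contrast (-0.022), for PRE3 (-0.083), PRE7 (-0.042), RPN9 (-0.036) and RPN4 (-0.012) in strain 2 against labelled parental, for PRE2 (-0.059), RPT3 (-0.0018), RPN2 (-0.011), RPN3 (-0.045) and RPN7 (-0.030) in strain 2 against strain 1, and for PUP1 (-0.017) and PRE7 (-0.0039) in strain 3 against strain 1. With quantile normalization they turned for RPN6 in strain 3 against strain 1 (0.0034) and for PRE10 (-0.021) and RPN13 (-0.011) in strain 3 against strain 2. With each array left out in turn the values spanned 0, against labelled parental, for RPT5 (-0.0027 to 0.107) and RPN8 (-0.080 to 0.00090) in strain 1 and PRE3 (-0.024 to 0.026) in strain 2. Between strains 2 and 1 this held for PRE2 (-0.0058 to 0.023) and RPT6 (-0.081 to 0.0099), between strains 3 and 1 for PUP3 (-0.052 to 0.016) and RPN14 (-0.030 to 0.0016), and between strains 3 and 2 for PRE8 (-0.048 to 0.050), PRE10 (-0.012 to 0.029) and RPN13 (-0.0097 to 0.043).

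The replicate numbers did not pair the arrays: differences of replicate 1 minus replicate 2 correlated between groups across genes at -0.12 to 0.03 over 6 pairs of groups. With the number as a replicate block, 31 subunits were called in the mean contrast, with no change of call for any member. Calls were lost for PUP3 and RPN12 in strain 1 against labelled parental, for RPT4 in strain 3 against strain 1 and for PUP1, PRE4 and RPN3 in strain 3 against strain 2. A planned search of promoters for the Rpn4 site was not run.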

Other observations

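The members' brightness was set beside that of other genes, since bright and dim probe sets can differ in how often they are called. Members were split at 11.99, the median of their mean log2 levels. Of the 17 dimmer members 10 were called higher and 7 lower in the mean contrast. Among the 816 genes tested whose levels lay in that band, 42.8% were higher and 47.4% lower. Of the 17 brighter members 6 were called higher and 9 lower, and among the 409 genes of that band 41.1% were higher and 48.9% lower. At least 2-fold differences were found for 1 of the 17 dimmer members, 5.88%, against 21% of the genes in the band, and for 0 of the 17 brighter members, against 21.3%. These bands were described without a test.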
